A study of Mus musculus with 40 samples.

Results

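Transcripts of 30 genes of apoptosis and of the p53 response were followed through early eye development in *Aey69* mouse embryos. The set was chosen by gene name, and a gene entered through every array probe that the platform annotation gives under its symbol. It covers p53 with its regulator *Mdm2*, p53 target genes, the BCL2 family, the apoptosome and the caspases. Of the 30 genes, 28 had a named probe, together 65 of the 25697 probes, within 16593 named genes on the array. No probe was found under the symbols *Trp53* and *Bax*, so p53 itself and this effector were not analysed here. *Aey69* is a line from ENU mutagenesis, selected for small eyes, on the C3HeB/FeJ strain, and its homozygous mutants carry a change in *Hist2h3c1*, a histone H3.2 gene. Controls were wild-type embryos of the same strain, which the study calls littermates. Whole embryos were taken on E9.5 (4 mutants, 3 controls) and heads on each of E10.5 and E11.5 (4 and 4). From E12.5 the eye region was dissected (4 mutants, 3 controls) and from E13.5 the eye (3 and 3), as the study states for both genotypes. Some label fields of the E13.5 mutants also give the eye, whereas the tissue field of both genotypes reads eye region. Some label fields of the last 3 controls give the age as E12.5, and their title was taken.

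p53 is a transcription factor that stress stabilizes, and MDM2 holds it low by ubiquitination in a feedback loop, since *Mdm2* is itself a p53 target. Its targets arrest the cell cycle or trigger the mitochondrial pathway, in which BH3-only proteins release the effectors BAX and BAK from BCL2 and its relatives, cytochrome c activates APAF1 and caspase 9, and executioner caspases follow. Programmed cell death takes part in normal eye morphogenesis, for example where the lens vesicle separates from the surface ectoderm.

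The promoters of the members were searched for the p53 response element, a tandem motif whose copies each read the same on both strands, with up to 13 bases between them. RefSeq gave 35 windows for 25 members in GRCm38.p6, each from 250 bases before to 50 after a start site. The element stood complete in 24 of 32851 windows of all genes (0.0731%), and 1 of the 24 belonged to a member, *Cdkn1a*. With 1 mismatch allowed it stood in 0.627% of all windows and in 2 of the 35, the other being that of *Ccng1*. Both windows (*Cdkn1a*, chr17:29090729-29091028, plus strand; *Ccng1*, chr11:40755237-40755536, minus strand) are shown because they held the element, with the motif copies in capitals. The search was chosen after expression values were seen, and a match is a description of these letters.
Cdkn1a: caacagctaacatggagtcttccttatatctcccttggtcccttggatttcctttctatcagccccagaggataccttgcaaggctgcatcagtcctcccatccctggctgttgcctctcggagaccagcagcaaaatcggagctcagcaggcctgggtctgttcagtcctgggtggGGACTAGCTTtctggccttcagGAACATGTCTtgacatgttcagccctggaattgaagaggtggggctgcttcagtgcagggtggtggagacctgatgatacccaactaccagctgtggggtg
Ccng1: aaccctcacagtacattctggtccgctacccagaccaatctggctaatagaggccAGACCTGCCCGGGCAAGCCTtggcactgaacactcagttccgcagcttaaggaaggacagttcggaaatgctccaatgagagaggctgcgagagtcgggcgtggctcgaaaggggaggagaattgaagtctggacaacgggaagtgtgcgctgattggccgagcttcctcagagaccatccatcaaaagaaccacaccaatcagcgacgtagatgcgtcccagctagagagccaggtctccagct
In *Cdkn1a* the element started 73 bases before the start site of this window with 12 bases between its motif copies. A further *Cdkn1a* window, at another start site (chr17:29093519-29093818), held 0 motif copies and no element. In *Ccng1* it started 195 bases before the start site with 0 bases between them.

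Signals are given as log2 of the normalized bead signal, and a difference of 1 is a doubling. Each array detected 44.6% to 54.9% of its probes (detection p under 0.05). A probe was taken as detected at a stage where 2 of 3 samples, or 3 of 4, of either genotype did so, and 25 members met this in at least 1 group. *Perp*, *Xiap* and *Dffb* were detected in none. The samples of a group differed along a common gradient, namely the first principal axis of the deviations from group means. It carried 47.5% of the within-group variance. At E12.5 control sample 2 scored 58.6 on it, against -38.3 and -45.9 in the other controls and -4.81 to 23.2 in the mutants. That sample detected 47.6% of its probes, the other controls 54.0% and 54.4%, and the mutants 49.7% to 51.4%. At E13.5 the mutants scored -16.6 to -9.04 and the controls -1.83 to 24.4, without overlap. Their detected shares of 53.3% to 54.9% and 52.6% to 54.4% overlapped. Whether the gradient follows the signal of the arrays was not tested. Lens markers summed to a log2 signal of 15.51 to 15.87 in controls and 7.86 to 7.98 in mutants at E13.5, and of these 8 markers *Mip* and *Pitx3* were detected in 3 of 3 mutants, *Cryaa* and *Bfsp1* in 2 of 3, and *Cryba1*, *Crygd*, *Lim2* and *Foxe3* in none. At E12.5 mutants lay below controls without overlap in lens markers (8.05 to 8.18 against 11.16 to 11.76) and in those of mesenchyme (9.66 to 10.34 against 11.97 to 12.43), skeletal muscle and endothelium. At E13.5 they lay below in markers of retina (7.69 to 7.86 against 8.08 to 8.26), retinal ganglion cells and pigment epithelium (10.61 to 10.78 against 11.10 to 11.82). They lay above in those of proliferation (12.89 to 13.02 against 12.61 to 12.78), erythroid cells (14.99 to 15.67 against 14.82 to 14.94) and endothelium. Of the 5 measured retinal markers *Six3* and *Rax* were detected in all 6 samples of E13.5, *Sox2* in 4 and *Six6* in 1, and *Pax6* was not detected in any group. The part of these marker levels in the results was not tested. In whole tissue, fewer cells of a type and less RNA per cell cannot be told apart.

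A gene was called when a probe passed a false discovery rate of 10% in limma over all probes and was detected. Between mutants and controls, 0 of 24 detected members were called at each of E9.5, E10.5 and E11.5, beside 0%, 0% and 0.0975% of all detected named genes. For the eye stages it was 0 of 25 (E12.5) and 1 of 24 (E13.5), beside 0.622% and 1.95%. At an unadjusted p under 0.05 there were 2, 0, 7, 7 and 4 members, beside 12.9%, 1.48%, 11.7%, 17.5% and 26.5% of all named genes. The median difference over the members lay between -0.06 and 0.06 at all stages, and members above and below 0 were about equal in number (12 and 12 at E13.5). Samples of the genotypes did not overlap for 6 members at E12.5 and 11 at E13.5, beside 16.2% and 30.8% of all named genes.

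**Figure D1:**
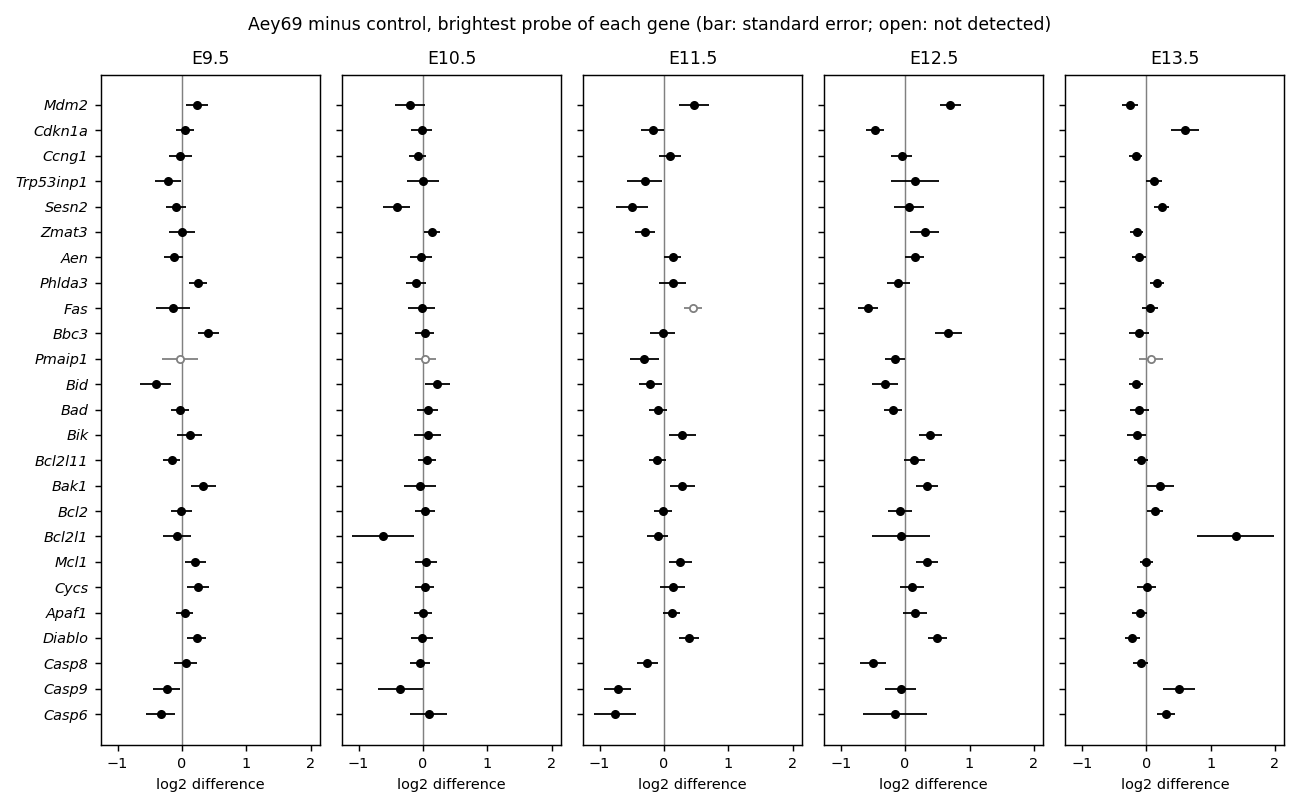
Difference between *Aey69* and control samples (log2, x axis) for the brightest probe of each detected member (rows), in a panel per stage, with standard errors as bars and open points where neither genotype met the detection rule. At E10.5 the points lie between -0.62 and 0.22, and *Mdm2* and *Cdkn1a* stand on opposite sides of 0 at E12.5 and have changed sides at E13.5.

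*Mdm2*, the p53 ubiquitin ligase, had signals of 10.06, 9.84 and 9.63 in the E12.5 controls (samples 2, 3 and 5). The mutants had 10.33, 10.53, 10.72 and 10.58, all above the controls. The difference was 0.70 (SE 0.16, 1.62-fold) with an adjusted p of 0.226, so it was not called. The other detected *Mdm2* probe (ILMN_2850753) was higher by 0.35 (SE 0.14), with 9.92 to 10.04 in mutants and 9.42 to 9.80 in controls. At E13.5 the brightest probe had 9.67, 9.73 and 9.44 in mutants and 9.87, 9.75 and 9.95 in controls, again without overlap but with the mutants below. This difference was -0.25 (SE 0.12, adjusted p = 0.380). The change of the difference from E12.5 to E13.5 was -0.94 (SE 0.32, adjusted p = 0.182). At E9.5 to E11.5 the 2 genotypes overlapped, with differences of 0.24, -0.21 and 0.46. Without control sample 2 the E12.5 difference was 0.81 and was called in limma (adjusted p = 0.00918), as were 38.6% of all named genes. It was not called without each of the other 6 samples (adjusted p = 0.358 to 0.639).

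*Cdkn1a* encodes p21, which inhibits cyclin-dependent kinases and arrests the cell cycle. At E12.5 its brightest probe (ILMN_2634083) read 7.90, 7.61 and 7.56 in controls and 7.26, 7.18, 7.17 and 7.27 in mutants. All mutants lay below all controls, by 0.47 (SE 0.14, adjusted p = 0.363). At E13.5 the controls had 6.49, 7.16 and 7.41 and the mutants 7.72, 7.64 and 7.51. All mutants now lay above all controls, by 0.60 (SE 0.22, adjusted p = 0.246). The change of the genotype difference between these stages was 1.07 (SE 0.25, a factor of 2.10) and was called, with an adjusted p of 0.0248. It was not called without control sample 2 of E13.5, the lowest value (0.81, adjusted p = 0.125), and it was called without each of the other 12 samples of these stages. At E9.5, E10.5 and E11.5 the difference was 0.05, -0.02 and -0.18, with overlapping groups. Of the other probes, ILMN_2846775 went the same way (-0.34, then 0.26), and ILMN_2846776 differed by 0.05 at E12.5 and 0.56 at E13.5 (SE 0.12, adjusted p = 0.127). That probe had 6.16, 6.23 and 6.19 in the E13.5 mutants and 5.43, 5.78 and 5.70 in controls. Between these stages the age changed and, as the study states for both genotypes, so did the dissected tissue. Their parts in the change of the difference cannot be told apart.

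**Figure D2:**
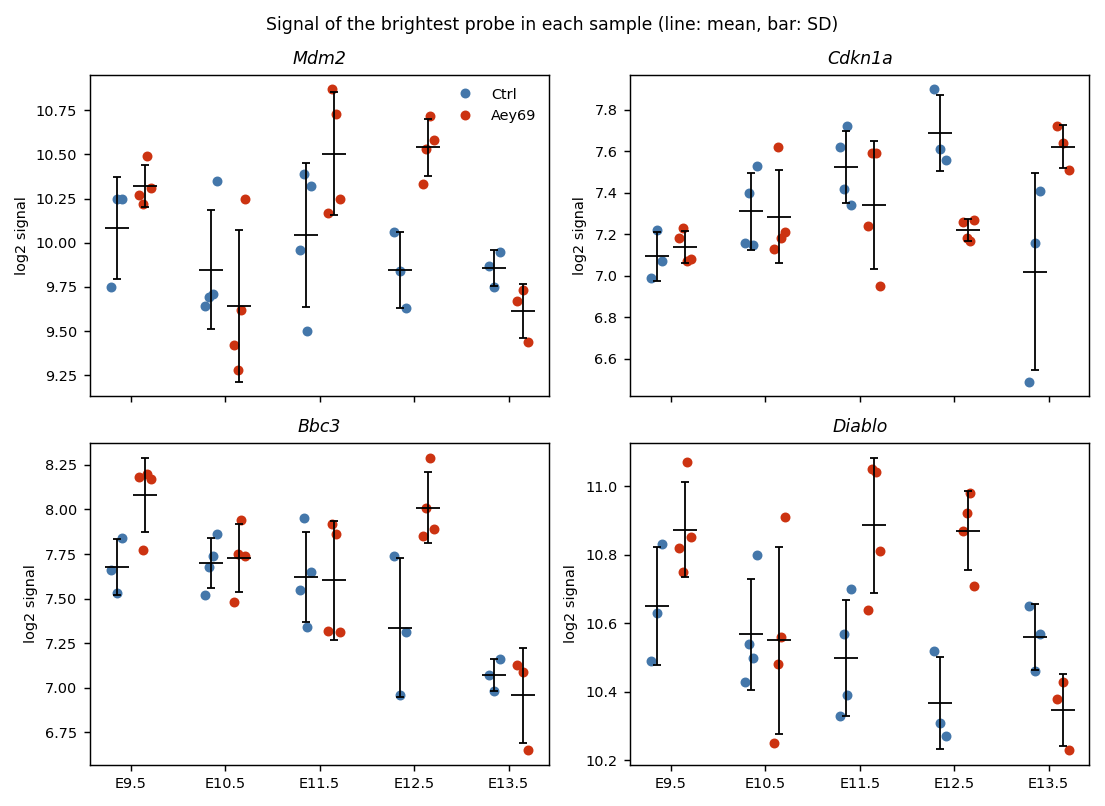
Log2 signal (y axis) of the brightest probe of *Mdm2*, *Cdkn1a*, *Bbc3* and *Diablo* in each sample (points, blue for controls and red for *Aey69*) by stage (x axis), with group means and SDs. The y axes differ between panels, and at E12.5 the genotypes do not overlap in any of the 4 panels.

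*Ccng1*, the p53 target encoding cyclin G1, was the member called at E13.5, through 1 of its 3 probes. Probe ILMN_2710229 had 7.49, 7.33 and 7.58 in mutants and 6.64, 6.97 and 6.51 in controls. The mutants lay above the controls by 0.76 (SE 0.15, 1.70-fold, adjusted p = 0.0972). Probe ILMN_2702233 went the same way (0.60, SE 0.18, adjusted p = 0.193), with 6.35 to 6.49 in mutants and 5.56 to 6.25 in controls. The brightest probe, ILMN_2500276, did not, with 9.07, 9.03 and 9.03 in mutants below 9.24, 9.19 and 9.17 in controls (-0.16, SE 0.10, adjusted p = 0.478). At the earlier stages the first 2 probes lay lower in mutants, by 0.65 each at E9.5 and by 0.77 and 0.46 at E12.5, and the brightest lay within 0.09 of 0. The call at E13.5 was kept without control sample 4 (adjusted p = 0.0161) and not kept without any of the other 5 samples (adjusted p = 0.186 to 0.336). Both probes that moved had low loadings on the gradient between samples, at percentiles 3.22 and 5.90 of all probes in the axis of the other stages, where a low percentile means a signal that falls as the score rises. The brightest probe stood at 29.6. With the score as a covariate the difference of ILMN_2710229 was 0.33 (adjusted p = 0.735). Since the scores of the genotypes did not overlap at this stage, this fit cannot tell the gradient from the genotype.

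Among the other targets in arrest and stress, *Trp53inp1*, a p53-induced nuclear protein gene, differed at E11.5 through its dimmer probe (ILMN_2971479). Its signals were 6.0, 6.13, 6.06 and 6.14 in mutants and 5.63, 5.47, 5.57 and 5.79 in controls. The mutants lay above, by 0.47 (SE 0.13, adjusted p = 0.658), while its brightest probe differed by -0.30 (SE 0.27). *Sesn2*, a stress-induced sestrin gene, lay lower in mutants by 0.41 at E10.5 and by 0.50 at E11.5 and higher by 0.24 at E13.5, all uncalled. The brightest probes of *Zmat3*, an RNA-binding zinc finger gene, and of *Aen*, an exonuclease gene, stayed within 0.30 of 0 at each stage.

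*Fas*, the death receptor, was detected in all 8 heads of E10.5 through its brightest probe and in none of E11.5. At E12.5 control samples 3 and 5 detected it at 5.28 and 5.25, control sample 2 did not (5.08), and none of the 4 mutants did (4.48 to 4.86). Set against the lowest detected signals, controls were at least 1.05-fold higher, and the fitted difference had an adjusted p of 0.30. At E13.5 all 6 samples detected *Fas*, with 6.08, 6.14 and 6.36 in mutants and 6.21, 6.01 and 6.19 in controls, which overlapped. *Phlda3*, a repressor of AKT, lay 0.25 above controls at E9.5 and 0.17 above them at E13.5, without overlap at either stage and uncalled at both. At E10.5, E11.5 and E12.5 this brightest probe differed by -0.11, 0.13 and -0.10. The dimmer probe ILMN_2628567 differed by -0.05 at E13.5.

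Among the BH3-only genes, *Bbc3*, which encodes PUMA, had signals of 7.85, 8.01, 8.29 and 7.89 in the E12.5 mutants. The controls had 7.74, 6.96 and 7.31, all below the mutants. The difference was 0.67 (SE 0.21, 1.59-fold, adjusted p = 0.376), and its 2 dimmer probes were higher by 0.31 and 0.30. At E13.5 it was -0.12 (SE 0.15), with overlap. At E9.5 the mutants had 8.18, 7.77, 8.20 and 8.17 and the controls 7.66, 7.53 and 7.84, a difference of 0.41 (SE 0.16, adjusted p = 0.638) that was -0.034 under median scaling. Its dimmer probes ILMN_2690620 and ILMN_2690621 differed there by 0.16 and -0.39. *Pmaip1*, which encodes NOXA, was detected in 2 of the 10 groups, the controls of E11.5 and of E12.5. At E11.5 its signals were 6.18, 5.43, 5.47 and 5.24 in controls and 5.29, 4.95, 5.15 and 5.70 in mutants, a difference of -0.31 (SE 0.23). *Bid*, *Bad*, *Bik* and *Bcl2l11*, which encodes BIM, were not called at any stage, and their brightest probes differed by -0.41 to 0.39. A dim *Bcl2l11* probe (ILMN_1229255) was detected in all 4 E11.5 controls (5.16 to 5.52) and in 0 of 4 mutants (4.39 to 4.95), which makes the controls at least 1.05-fold higher (adjusted p = 0.658).

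The effector gene *Bak1* differed by 0.33, -0.05, 0.28, 0.34 and 0.22 from the earliest stage to the latest, uncalled throughout. Of the survival genes, *Bcl2* had 7.83, 7.94 and 8.09 in mutants and 7.98, 7.77 and 7.73 in controls at E13.5, and its brightest probe stayed within 0.13 of 0 at all stages. *Mcl1* was higher in the E12.5 mutants by 0.34 (SE 0.18) and differed by 0.00 at E13.5. *Bcl2l1*, which encodes BCL-XL, lay lower in mutants at E10.5 through its 3 probes (by 0.62, 0.64 and 0.56) and at E11.5 (by 0.10, 0.41 and 0.28), all uncalled. At E13.5 the signals of its brightest probe were 8.28, 8.51 and 8.22 in mutants and 7.61, 7.96 and 5.28 in controls. The mutants lay above all controls, by 1.39 (SE 0.60, adjusted p = 0.316), and control sample 5 was far below the other 5 samples. Its probes ILMN_2742557 and ILMN_2647885 were higher by 0.81 (SE 0.22, adjusted p = 0.152) and 1.21 (SE 0.35, adjusted p = 0.174). Their loading percentiles on the gradient were 11.4, 7.15 and 6.32. With the score as a covariate ILMN_2742557 differed by 0.04, in a fit that cannot tell score from genotype at this stage.

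In the apoptosome, *Diablo*, whose product SMAC leaves mitochondria and blocks inhibitors of apoptosis, had 10.87, 10.92, 10.98 and 10.71 in the E12.5 mutants and 10.52, 10.31 and 10.27 in controls. The mutants lay above, by 0.50 (SE 0.14, adjusted p = 0.339). At E13.5 they had 10.38, 10.43 and 10.23 against 10.65, 10.46 and 10.57, below all controls, by 0.21 (SE 0.11, adjusted p = 0.400). The change of the difference was -0.72 (SE 0.20) and was called, with an adjusted p of 0.0933. It was kept without mutant sample 5 or control sample 2 of E12.5 and not kept without each of the other 11 samples (adjusted p = 0.103 to 0.262). At E11.5 *Diablo* was higher by 0.38 (SE 0.15, adjusted p = 0.658), with 10.64 to 11.05 in mutants and 10.33 to 10.70 in controls. *Cycs*, the cytochrome c gene, was higher in the E12.5 mutants by 0.61 (SE 0.16, adjusted p = 0.302) through its dimmer probe, with 5.92 to 6.23 against 5.22 to 5.65, and by 0.10 through the brighter. The probes of *Apaf1* differed in sign at E13.5, none was called, and for the brightest the genotypes overlapped. Probe ILMN_1228561 had 7.33, 7.47 and 7.84 in mutants and 6.04, 6.96 and 5.34 in controls (1.44, SE 0.36, adjusted p = 0.147), whereas the brightest probe had 9.37 to 9.53 and 9.44 to 9.68 (-0.10, SE 0.12). The first stood at percentile 1.95 on the gradient and the brightest at 32.4. With the score as a covariate the first differed by -0.01, again in a fit that cannot tell score from genotype.

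**Figure D3:**
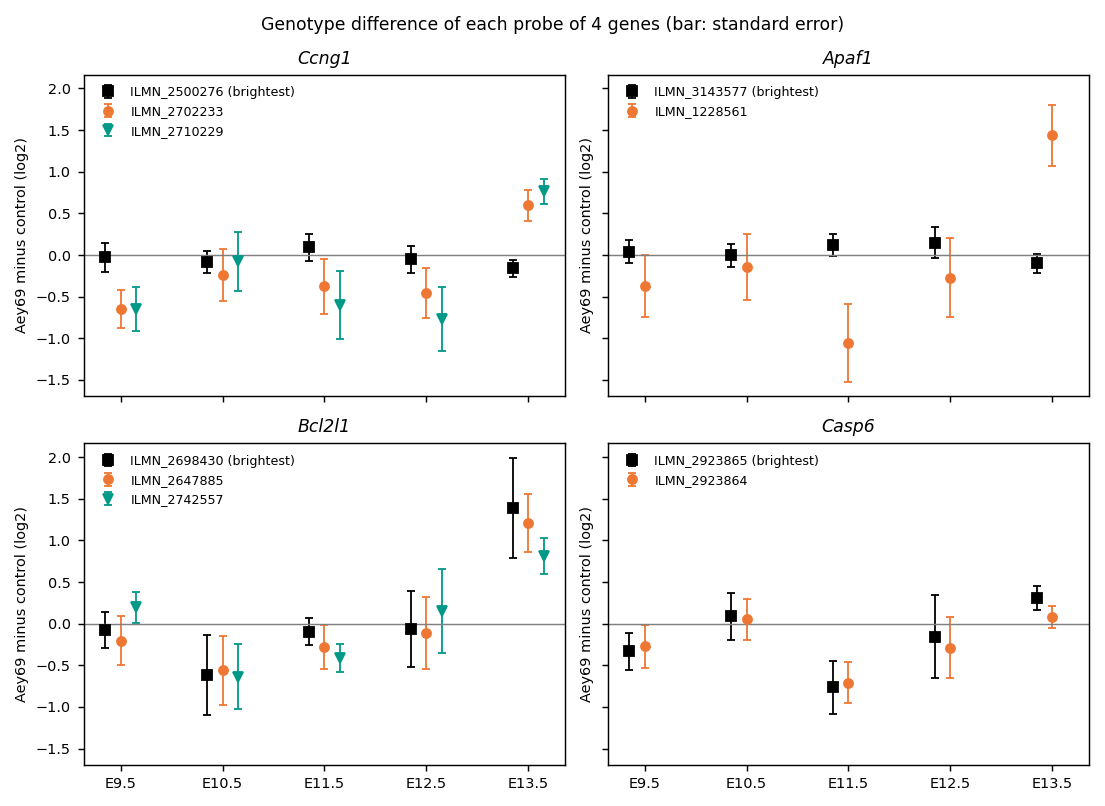
Genotype difference (log2, y axis) of each probe of *Ccng1*, *Apaf1*, *Bcl2l1* and *Casp6* by stage (x axis), with standard errors as bars and the brightest probe as black squares. At E13.5 the probes of *Ccng1* and of *Apaf1* lie on both sides of 0, and the 3 probes of *Bcl2l1* lie above it.

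*Casp8*, the initiator caspase of death receptors, had 6.21, 6.25, 5.70 and 6.19 in the E12.5 mutants and 6.47, 6.39 and 6.90 in controls. The mutants lay below, by 0.50 (SE 0.20, adjusted p = 0.480), and at E13.5 the groups overlapped (-0.08, SE 0.12). *Casp6*, an executioner caspase, had 9.42, 8.16, 8.19 and 9.44 in the E11.5 mutants and 9.79, 9.38, 9.91 and 9.18 in controls. The difference was -0.76 (SE 0.32, adjusted p = 0.658). The 2 low values are those of mutant samples 3 and 4, which scored 52.4 and 52.7 on the gradient against at most 0.484 in the controls. In the axis used for E11.5 this brightest *Casp6* probe stood at percentile 3.61 and the dimmer one at 6.45. The initiator caspase gene *Casp9* was detected in 1 of these 4 mutants and in 4 of 4 controls (5.16 to 5.75), with a difference of -0.72 (SE 0.21, adjusted p = 0.658). The mutants with signals of 5.26, 4.5, 4.48 and 5.02 overlapped the controls.

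The eye stages were also compared within each genotype. Age changed here and, as the study states for both genotypes, the tissue too. Mesenchyme markers summed to 9.66 to 10.34 in the E12.5 mutants and 13.31 to 13.64 in the E13.5 mutants. In controls they summed to 11.97 to 12.43 and 13.01 to 13.37. Their part in the result was not tested. In mutants 19 of 24 members were called, beside 65.9% of all named genes, and in controls 2 of 25, beside 9.34%. In controls 10 members were called without sample 2 of E12.5 (35.7% of all named genes) and 1 without sample 5 of E12.5 (4.03%). The count was 0 without each of the other 4 samples (1.25% to 4.05%). *Casp8* rose in mutants from 6.09 ± 0.26 (SD, n = 4) to 7.56 ± 0.08 (SD, n = 3) and in controls from 6.59 ± 0.28 (SD, n = 3) to 7.65 ± 0.13 (SD, n = 3), changes of 1.48 and 1.06 with adjusted p of 2.55e-05 and 0.0428. *Fas* rose in both, by 0.93 in controls and at least 2.09-fold in mutants. In mutants *Casp6* (1.33), *Phlda3* (1.02) and *Bcl2* (0.90) rose as well, and *Bbc3* (-1.05), *Mdm2* (-0.93), *Zmat3* (-0.72), *Mcl1* (-0.66) and *Diablo* (-0.52) fell. *Bcl2* was called in both directions, since its probe ILMN_2682162 fell by 0.54 while 3 others rose. In the same interval *Cdkn1a* rose by 0.40 in mutants (adjusted p = 0.0149) and differed by -0.67 in controls, where it was not called.

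**Figure D4:**
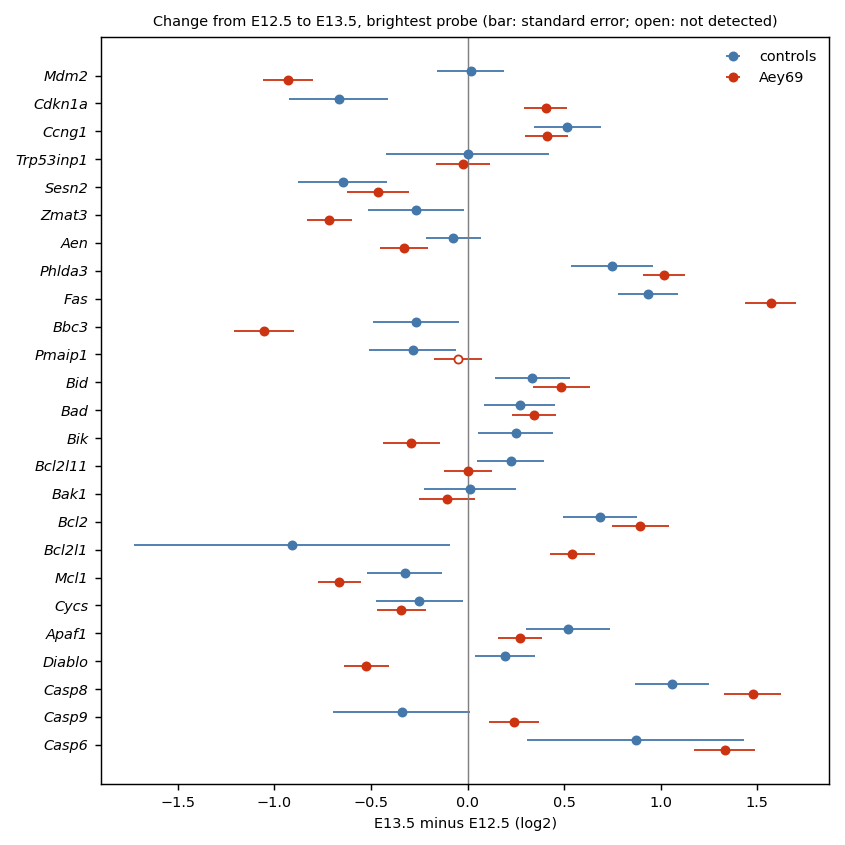
Change of log2 signal from E12.5 to E13.5 (x axis) of the brightest probe of each member (rows) in controls (blue) and *Aey69* (red), with standard errors as bars and an open point where the detection rule was not met. *Casp8*, *Fas* and *Phlda3* lie to the right of 0 in both, and *Cdkn1a* and *Diablo* lie on opposite sides of 0.

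In heads, where the tissue was the same at both ages, 2 of 25 members were called from E10.5 to E11.5 in controls (12.8% of all named genes) and 5 of 24 in mutants (20.3%). *Fas* fell in both, at least 1.52-fold in controls and at least 1.37-fold in mutants. Its signals were 5.93, 5.40, 5.27 and 6.12 in the E10.5 controls and 4.39 to 4.76, all undetected, in those of E11.5. *Trp53inp1* rose in both, by 0.83 (SE 0.19, adjusted p = 0.0414) in controls and, through its dimmer probe, by 0.57 (SE 0.14, adjusted p = 0.0417) in mutants. *Mdm2* rose by 0.86 in mutants, *Casp8* fell by 0.57, and *Bcl2l11* fell at least 1.07-fold through its dim probe. In mutants 0 members were called without sample 2 of E10.5 or sample 4 of E11.5, 1 without sample 4 of E10.5 or sample 3 of E11.5, and 3 without sample 3 of E10.5. In controls 1 was called without sample 4 of E10.5 or without sample 3 or 5 of E11.5. The change of the genotype difference was called for 0 of 24 members from E9.5 to E10.5 (0.0209% of all named genes), 0 of 25 from E10.5 to E11.5 (0.0104%), 0 of 25 from E11.5 to E12.5 (0.875%) and 2 of 25 from E12.5 to E13.5 (3.26%), the *Cdkn1a* and *Diablo* results given above. At an unadjusted p under 0.05 these counts were 2, 2, 3 and 8 in limma, beside 8.33%, 6.48%, 10.9% and 21% of all named genes. The last count of calls was 7 without control sample 2 of E12.5, beside 15.1% of all named genes. It was 0 without control sample 2 of E13.5 (1.99%) and 2 without mutant sample 5 of E12.5 (3.11%). Without each of the others it was 1 (1.77% to 3.09%).

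The count of calls at E12.5 changed with 1 library. Without control sample 2, 14 of 25 members were called, beside 38.6% of all named genes, and the scores of the remaining controls no longer overlapped those of the mutants. *Mdm2*, *Bbc3*, *Diablo*, *Mcl1*, *Cycs*, *Bak1*, *Bik* and *Bcl2* were then higher in mutants (8 members), and *Ccng1*, *Apaf1*, *Casp6*, *Bcl2l1*, *Fas* and *Casp8* lower (6). *Ccng1* (ILMN_2710229) differed by -1.32 and *Bbc3* by 0.87. *Mdm2*, *Bik*, *Bak1* and *Mcl1* stood at percentiles 94.7, 91.4, 87.9 and 86.2 of the gradient, at the end opposite to *Ccng1*, *Apaf1* (ILMN_1228561) and *Casp6* (2.67, 1.42 and 5.01). *Fas* and *Casp8* stood near its middle, at 54.2 and 49.1. At E13.5, 6 of 24 members were called without control sample 4, beside 14.8% of all named genes. The gradient score was fitted only as a covariate, with which 9 members were called at E12.5 and 0 at E13.5, beside 22.2% and 0.18% of all named genes. At E13.5 the scores of mutants and controls did not overlap, so this fit cannot tell the gradient from the genotype. The part of the gradient in these counts was not tested otherwise.

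Beyond the members, other genes of these pathways were read from fixed lists. Of 28 detected further p53 targets 0 were called between genotypes at E12.5, and 0 of 27 at E13.5, beside 0.622% and 1.95% of all named genes, with medians of -0.06 and -0.07. The change of the genotype difference from E12.5 to E13.5 was called for 3 of 28, beside 3.26% of all named genes, all downward, namely *Plk3* (-1.40, adjusted p = 0.0615), a stress-response kinase gene, *Chek2* (-0.69, adjusted p = 0.0729), the checkpoint kinase gene, and *Gtse1* (-0.60, adjusted p = 0.0642). Of 14 detected engulfment genes 0 were called between genotypes at either stage. From E12.5 to E13.5 in mutants 9 of them rose and 2 fell, among them *Gulp1* (1.55), *Pros1* (1.38) and *Elmo1* (-1.36), beside 65.9% of all named genes called. Macrophage markers summed to 9.33 to 9.71 in the E13.5 mutants and 8.42 to 9.40 in controls, and their part in these values was not tested. Of 8 detected death receptor and adaptor genes 0 were called between genotypes at E12.5 or at E13.5.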

How the data were processed

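RNA of *Aey69* and control embryos was measured on Illumina Mouse Ref-8 bead arrays. Deposited were, for each probe, the intensity that the authors read in GenomeStudio after background subtraction and its detection p-value, as well as an intensity table that they quantile-normalized after adding an offset. Of 40 arrays, 4 that the study excluded were left out. Samples were grouped by title, signal columns were joined to groups by name (0 left unmapped), and sample numbers are those of the columns.

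To the deposited intensity 22 was added as an offset, and the 36 arrays were quantile-normalized and converted to log2. Each stage was fitted in limma 3.58.1 (R 4.3.3, eBayes, 2-sided), with Benjamini-Hochberg adjustment over 25697 probes and the detection filter applied after the fit. The offset shrinks the differences of dim probes. Interactions of genotype and stage were fitted in 1 model of 10 groups. The brightest probe stands for a gene, and a gene was called if any probe passed. Probes without a gene name (1719) entered the fits. Where no array of a group detected a probe, the fold is the bright group's mean against the lowest detected signals. The script was tested on simulated data. The replicates are biological according to the labels, and their number limits the precision.

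Named genes were 11 core genes, members called between genotypes, and up to 4 members with the smallest unadjusted p per genotype comparison. Other members, the dimmer probes and the promoter search were chosen after values were seen. The members and lists were chosen with earlier results of these data known. Alternatives were the authors' table, other normalizations and offsets, the excluded samples, probe filters, variance models, the gradient score as a covariate, 1 model of all groups, a replicate block and leaving out each sample. The replicate numbers of the titles were not taken as pairs, since at no stage did every same-numbered pair correlate above 0.1. At E9.5 and E10.5 each mutant with a same-numbered control still matched it best, so the unpaired fits may ignore a pairing there.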

Additional observations from a re-analysis of the deposited data

Results flagged for a closer look

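The genotype difference of *Cdkn1a* (ILMN_2634083) changed by 1.07 from E12.5 to E13.5 in limma, with all mutants below the controls at E12.5 and above them at E13.5. That of *Diablo* (ILMN_1221981) changed by -0.72 in the opposite order. Both were tested as interactions.

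In 168 groups of 4 samples of the named probes, 11 had a sample far from the other 3 (6.55%, where chance gives about 1 in 20). Control sample 5 of E10.5 was that sample for both *Casp6* probes (7.44 against 8.19 to 8.34, and 8.48 against 9.61 to 9.73) and for *Mdm2* (10.35 against 9.64 to 9.71). It also had the highest gradient score of its group, 47.4. Among the E9.5 mutants, sample 3 was low for *Bbc3* (7.77 against 8.17 to 8.20) and sample 4 for *Bcl2l1* (7.07 against 7.82 to 7.96). Among the E10.5 mutants, *Cdkn1a* was high in sample 3 through ILMN_2634083 (7.62 against 7.13 to 7.21) and low in sample 4 through ILMN_2846776 (5.70 against 6.36 to 6.42). At E11.5, *Bcl2* was low in mutant sample 3 (7.23 against 7.47 to 7.49), *Fas* was low in control sample 2 (4.39 against 4.71 to 4.76, all undetected), and *Bcl2l11* (ILMN_1229255) was high in control sample 4 (5.52 against 5.16 to 5.22). *Casp8* was low in the E12.5 mutant sample 4 (5.70 against 6.19 to 6.25).

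The excluded mutant sample 3 of E13.5, normalized together with all 40 arrays, lay above the kept controls for each of the 3 called probes. *Ccng1* (ILMN_2710229) read 7.51 against 6.44 to 6.91, *Cdkn1a* (ILMN_2634083) 8.31 against 6.43 to 7.34, and *Diablo* 11.04 against 10.4 to 10.6. For *Diablo* the kept mutants lay below the controls, at 10.2 to 10.4. The left-out E13.5 control, number 3, did not detect the *Ccng1* and *Cdkn1a* probes and read 11.8 for *Diablo*. The study excluded this control for quality issues, which limits what its readings say of these genes. It excluded the mutant above and the E12.5 control below for atypical eye marker genes, with incorrect staging as a possible reason. The left-out E12.5 control, number 4, read 7.11 for *Cdkn1a*, below the 7.49 to 7.83 of the kept controls.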

How the results depend on the processing

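Counts of called members at E9.5, E10.5 and E11.5 stayed at 0 under every alternative run, beside at most 0.668%, 0.0219% and 0.108% of all named genes. Percentages below are this share. At E12.5 the count of 0 became 2 with the offset raised by 50 (2.44%) and 9 with the gradient score as a covariate (22.2%). It was 3 in 1 model of 10 groups (4.80%) and 0 to 14 when a sample was left out (0.114% to 38.6%). At E13.5 the count of 1 became 3 with the raised offset (9.19%) and 4 with dim probes left out before the fit (10.2%). It was 3 with an intensity trend and robust variance (8.57%). It became 0 with the excluded samples (0.0941%), the covariate (0.18%), 1 model of 10 groups (1.23%) and the authors' table with a replicate block (0.391%). The brightest probe alone also gave 0, and its share was not counted. With a sample left out it was 0 to 6 (0.431% to 14.8%), and 6 without control sample 4. From E10.5 to E11.5 the controls gave 1 under median scaling (11.1%), 6 with the covariate (23.4%) and 1 to 3 with a sample left out (5.87% to 19.2%). The mutants gave 3 under median scaling (21.6%) and 0 to 5 with a sample left out (9.66% to 21.9%). From E12.5 to E13.5 the controls gave 0 with the excluded samples (1.18%), 11 with the covariate (41.7%) and 0 to 10 with a sample left out (1.25% to 35.7%). The mutants gave 12 (38.9%), 2 (10.7%) and 15 to 19 (56.5% to 65.2%). The change of the genotype difference from E11.5 to E12.5 gave 1 under median scaling (0.713%), 1 with dim probes left out (1.44%) and 2 with the covariate (2.58%). That from E12.5 to E13.5 gave 0 under median scaling (2.76%) and 0 with the excluded samples (0.439%). It gave 4 with the covariate (9.07%) and 0 to 7 with a sample left out (1.77% to 15.1%). *Cdkn1a* and *Diablo* then had adjusted p of 0.108 and 0.118 under median scaling and 0.112 and 0.551 with the excluded samples. Directions turned for *Bbc3* at E9.5 under median scaling (-0.034), *Apaf1* (ILMN_1228561) at E13.5 with the covariate (-0.013) and *Ccng1* (ILMN_2500276) at E13.5 with the excluded samples (0.049), and the cause was not tested. Median scaling moved the median of all detected probes from E9.5 to E13.5 to -0.33, 0.08, -0.10, -0.0048 and -0.14. By the replicate numbers of the titles, samples deviated together in 7 of 17 pairs (r over 0.1, range -0.52 to 0.75). At E9.5 and E10.5 all 7 mutants matched their own number best, a hint of pairing there, with r of 0.0992 and 0.0642 in the lowest pair. The replicate block called 0 members in each genotype comparison, beside 0.0108% to 0.391% of all named genes. Signal near background limited *Fas* at E11.5 and E12.5, *Casp9* and *Pmaip1*.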

Other observations

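By the replicate numbers of the titles in the authors' table, which are not the column numbers used above, 17 mutants had a same-numbered control and 8 matched it best, 7 of them at E9.5 or E10.5. Of the 13 or 14 members with several detected probes at a stage, the probes had both signs in 5, 4, 7, 4 and 5, from the earliest stage to the latest. The widest gap between the differences of 2 probes of a gene was 1.54 at E13.5 and 0.28 at E10.5.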
